A study of Homo sapiens with 2 samples.

Results

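The genes described here encode lysosomal enzymes, lysosomal membrane proteins and components of autophagy, and there were 43 of them among the 43317 gene names on the array. They were chosen by symbol, taking every non-control probe whose gene name in the deposited files equalled one of the 43 symbols, which gave 62 probes. A total of 42 of the 43 genes were detected on both arrays, against 20246 gene names over the whole array. RNA came from Ca9-22, a cell line of oral squamous cell carcinoma (OSCC), infected either with a lentiviral vector carrying DLEU1 or with a control vector. DLEU1 is a long noncoding RNA, and per the study's methods its full-length cDNA had been cloned from a different OSCC line. Cells of both kinds were cultured alike and selected with blasticidin, so infection and drug selection were shared by the groups. Each group was 1 sample measured on 1 Agilent 1-colour array, both arrays lay on the same slide, and the values were therefore compared without any test, p-value or replicate SD.

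The lysosome is an acidic compartment in which hydrolases such as the cathepsins break down proteins, lipids and sugars. In autophagy, the ULK1 kinase complex starts a membrane that grows with the help of the ATG conjugation proteins, is coated with LC3 and GABARAP proteins, captures cargo through receptors, and fuses with the lysosome. The transcription factors TFEB and TFE3 are known to act on many of these genes, and in stratified epithelia lysosomal proteases and autophagy are active as keratinocytes differentiate.

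In the DLEU1 vector cells, lysosome, cathepsin and autophagy genes lay mostly above their control vector level, except with scaling by spike-in probes, where their median was at 0.02. Each gene is represented by the brightest of its probes that both arrays detected, a level is the log2 signal relative to the 75th percentile of its array, and each difference is DLEU1 vector minus control vector. Of the 42 detected genes, 10 lay 2-fold or more above control (23.8%) and 0 lay as far below, where all detected gene names gave 9.18% higher and 9.78% lower. Among the 12360 detected protein-coding genes the shares were 8.98% higher and 11.4% lower. The difference was above 0 for 29 of the 42 genes (69.0%) and below 0 for 13, beside 43.0% above 0 among the protein-coding genes. The median was 0.48 against -0.12 for the protein-coding genes. Without replicate arrays, the only spreads available were technical, with an SD of the log2 difference of 0.0800 between spots of 1 probe (282 probes) and of 0.45 between different probes of 1 gene (16 of the genes described here). Neither holds the variation between cultures, so a difference smaller than the latter could not be told from the spread between probes.

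The 10 genes at least 2-fold higher were, in order of size, ULK1, PSAP, GABARAPL1, WIPI1, CTSD, OPTN, GAA, GABARAP, CTSH and CTSB. They covered protease, lipid and glycogen breakdown as well as the start and the cargo step of autophagy. Membrane proteins and regulators contributed none of the 10. Because each sample was bulk RNA, a different make-up of the culture and a different amount of RNA per cell cannot be told apart.

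**Figure D1:**
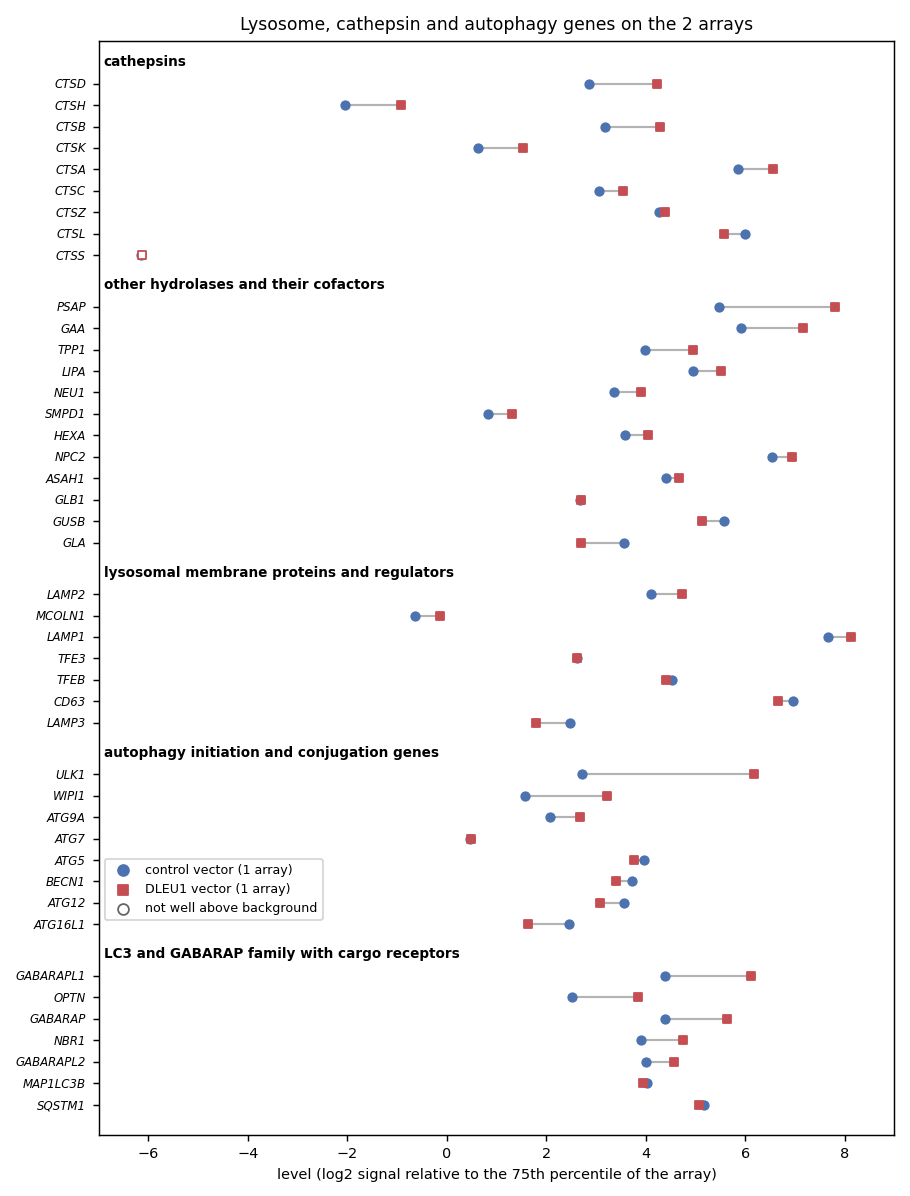
Level of each gene (log2 signal relative to the 75th percentile of the array, x axis) for the control vector (blue circles) and for the DLEU1 vector (red squares), 1 array each, with open symbols where the probe was not well above background. ULK1 and PSAP have the longest lines to the right, and every line that runs to the left is shorter than 1 log2 unit.

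The array checked its own labels through DLEU1. The probe for the transcript NR_002605 had a level of 3.17 in control cells and 5.91 in DLEU1 vector cells, a 6.67-fold difference. The other 2 DLEU1 probes, which match a different transcript of the locus, differed by 0.85 and 0.54 on the log2 scale. All 10 squamous epithelial markers, among them KRT5, KRT14 and CDH1, were detected on both arrays, as the labelled cell type requires.

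The genes at the start of autophagy held the largest difference. ULK1, the kinase that starts autophagosome formation, had a level of 2.72 in control cells and 6.18 in DLEU1 vector cells, an 11.0-fold difference read by its single probe. WIPI1, a phosphoinositide-binding protein recruited to the forming membrane, had levels of 1.57 and 3.22, or 3.14-fold. Both lay higher with the DLEU1 vector, and each rested on 1 spot per array. ULK1 and WIPI1 carry most of what is described for this group, so the stretches that these probes read are shown, the first 30 of 60 bases from 5′ to 3′ with their hg19 position.
ULK1, probe at chr12:132407342-132407401, plus strand: cttggacttagaagaagaaaatccccgtga
WIPI1, probe at chr17:66417454-66417513, minus strand: caggcaaagtcttttttggctgtggctgga

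The remaining autophagy initiation and conjugation genes stayed within 2-fold. ATG9A, the membrane protein that brings lipid vesicles to the site, differed by 0.60, and its dimmer probe by 0.93. BECN1, a subunit of the phosphatidylinositol kinase complex that follows ULK1, differed by -0.32. Among the chosen genes of the ubiquitin-like conjugation machinery, ATG7, its activating enzyme, was at 0.00, ATG5 at -0.20 and ATG12 at -0.47. ATG16L1, which directs the conjugate to the membrane, was the lowest of the group, with levels of 2.46 and 1.64 and a difference of -0.82, and its other probe gave -0.64. Over the 8 genes the median difference was -0.10, a sign that turned with quantile and loess normalization, and the group was divided between a few genes far above control and a majority near or below it. For ATG5 and ATG12 the dimmer probe had the opposite sign (0.47 and 0.26), and for ATG7 the dimmer probe gave -0.42.

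The LC3 and GABARAP family was split. GABARAPL1, a ubiquitin-like protein attached to autophagosome membranes, had levels of 4.39 and 6.12, or 3.32-fold, and its other probe gave a log2 difference of 1.67 beside 1.73. GABARAP itself had levels of 4.38 and 5.63, or 2.38-fold, and GABARAPL2 differed by 0.57. MAP1LC3B, the LC3 protein most used as an autophagosome marker, had levels of 4.03 and 3.95, a difference of -0.08. The 3 GABARAP genes thus lay above control while the brightest MAP1LC3B probe was at the control level, and its second probe differed by 0.40. Because GABARAPL1 was read by 2 probes with nearly the same difference, both are shown, again as the first 30 bases.
GABARAPL1, brighter probe at chr12:10375579-10375637, plus strand: agacatgacatttcaattcatctctgcaaa
GABARAPL1, dimmer probe at chr12:10374676-10374735, plus strand: ggattggctttgatagaggaatggggatga

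The cargo receptors were unequal as well. OPTN, a receptor for damaged mitochondria and bacteria, had levels of 2.51 and 3.84, or 2.51-fold. NBR1, a receptor for ubiquitinated cargo, differed by 0.86, a value from the detected probe of its 2 probes. SQSTM1 (p62), the receptor that is itself degraded by autophagy, had levels of 5.18 and 5.08, a difference of -0.10. Over the 7 genes of the LC3 and GABARAP family with the cargo receptors, 3 were at least 2-fold higher (42.9%) and the median difference was 0.86. Of all detected gene names, 9.18% were at least 2-fold higher. With spike-in scaling the median of the 7 genes was 0.40, and GABARAP (0.79) and OPTN (0.87) fell within 2-fold.

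Among the lysosomal hydrolases and their cofactors, PSAP was the most different. PSAP encodes prosaposin, the precursor of the saposins that present sphingolipids to lysosomal enzymes. Its levels were 5.48 and 7.81, or 5.02-fold, and its second probe gave 5.16-fold. The 2 probes lie in different places of the transcript, and the dimmer one spans a splice junction, so both are shown.
PSAP, brighter probe at chr10:73576971-73577030, minus strand: ccctagcccctggcagacatagctgcttca
PSAP, dimmer probe at chr10:73578848-73579260, minus strand: aaaggctgcagcttcctgccagacccttac

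GAA, the acid alpha-glucosidase that degrades glycogen, had levels of 5.91 and 7.16, or 2.39-fold. TPP1, a tripeptidyl peptidase, lay just within 2-fold, with differences of 0.98 and 0.90 at its 2 probes. Enzymes of lipid and glycoprotein breakdown followed in a narrow band. LIPA (lysosomal acid lipase), NEU1 (sialidase), SMPD1 (acid sphingomyelinase), HEXA (a beta-hexosaminidase subunit) and NPC2 (a cholesterol carrier) differed by 0.39 to 0.55. ASAH1 (acid ceramidase) differed by 0.26 and GLB1 (beta-galactosidase) by 0.03.

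GUSB and GLA were the hydrolases below control. GUSB, the beta-glucuronidase that is often used as a reference gene, differed by -0.44. That probe had 10 spots on each array, and the SD of the difference over its spots was 0.0391, which covers spot-to-spot error only. The difference itself was smaller than the SD of 0.45 between probes of 1 gene. GLA, the alpha-galactosidase of globotriaosylceramide breakdown, had levels of 3.57 and 2.70 and was the lowest of the group at -0.87. The 12 hydrolases and cofactors had a median difference of 0.47, with 10 above 0 (83.3%) and 2 at least 2-fold higher (16.7%). The protein-coding genes gave 43.0% and 8.98%. With spike-in scaling the median of the group was 0.0047, and ASAH1, GLB1, HEXA and NPC2 also lay below 0.

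Of the cathepsins, 7 of the 8 detected genes had differences above 0, beside 43.0% of the protein-coding genes, and the cathepsin median was 0.81. CTSD, the main aspartic protease of lysosomes, had levels of 2.86 and 4.23, or 2.58-fold. CTSB, a cysteine protease, had levels of 3.18 and 4.29, or 2.17-fold. CTSH, an aminopeptidase among the cysteine cathepsins, had low levels of -2.04 and -0.91, or 2.18-fold. These 3 were the cathepsins of the chosen set past 2-fold, and CTSK, best known from bone resorption by osteoclasts, came close with 0.91.

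The other cathepsins lay nearer to control. CTSA, a carboxypeptidase that also protects NEU1 and beta-galactosidase, differed by 0.72, and by 1.04 at its dimmer probe. CTSZ, a further carboxypeptidase, differed by 0.12, but by -0.75 at its dimmer probe. Within the chosen set, CTSL was the only cathepsin below control by its brightest probe. This cysteine protease had levels of 5.99 and 5.58, a difference of -0.42, and its second probe gave -0.13. CTSS, which is prominent in antigen-presenting cells, was not well above background on either array, so no fold was computed for it.

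CTSC, the dipeptidyl peptidase that activates serine proteases, was read differently by each of its 3 probes. The brightest, for NM_001114173, had levels of 3.06 and 3.54 and a difference of 0.49. The probe for NM_148170 had levels of 0.89 and 1.98, or 2.12-fold higher. The probe for NM_001814 had levels of 0.58 and 0.43, a difference of -0.15. The 3 probes belong to different transcripts of the gene, and their first 30 bases are shown because the sign of the difference depended on which one was read. The coordinates of the third probe span a splice junction.
CTSC, NM_001114173, chr11:88061281-88061340, minus strand: ttgttcatgcagctgggaactgtggggata
CTSC, NM_148170, chr11:88054028-88054087, minus strand: ggatcaactccatcttactaaccatttgat
CTSC, NM_001814, chr11:88033771-88042347, minus strand: agtcgaaaaatcccaaggcccaaacctgca

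Lysosomal membrane proteins stayed within 2-fold by their brightest probes, with differences in both directions. LAMP1, a heavily glycosylated protein of the lysosomal membrane, had levels of 7.67 and 8.13, a difference of 0.46. MCOLN1, the lysosomal calcium channel, had levels of -0.64 and -0.14, a difference of 0.50. CD63, a tetraspanin of late endosomes and exosomes, differed by -0.30. LAMP3, a family member with restricted expression, had levels of 2.48 and 1.80 and was the lowest of the group at -0.69. The 7 membrane proteins and regulators had a median difference of -0.02, which also turned positive with quantile and loess normalization. In this group 3 lay above 0 (42.9%), beside 43.0% of the protein-coding genes, and 0 lay past 2-fold either way. Past 2-fold were 8.98% of the protein-coding genes above control and 11.4% below.

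LAMP2 was read by 3 probes listed for different transcripts. The brightest probe, listed for NM_001122606 and called the shared probe below, had levels of 4.11 and 4.72. Its difference of 0.61 was the highest of the group. Which other transcripts it matches was not checked, since exon annotation was not used here. The probe for NM_013995 (LAMP-2B) had levels of 1.92 and 2.75, a difference of 0.84. The probe for NM_002294, which encodes LAMP-2A, the receptor of chaperone-mediated autophagy, had levels of 1.28 and 2.64, or 2.56-fold. All 3 lay above control, and the one for LAMP-2A was the farthest from it.
LAMP2, shared probe, chrX:119575586-119575645, minus strand: ataaatacctttgatctaagggttcagcct
LAMP2, NM_013995, chrX:119571194-119571253, minus strand: tgcctcccattcactagaaaatgagaaaat
LAMP2, NM_002294, chrX:119560073-119560132, minus strand: ggatgtatcgatttagagaaccaattaata

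The regulators TFEB and TFE3 gave an unclear picture. TFE3 had levels of 2.63 and 2.61, a difference of -0.02, and 0.08 at its second probe. The brightest TFEB probe had levels of 4.53 and 4.41, a difference of -0.12. The other TFEB probe had levels of 3.31 and 4.85, or 2.90-fold higher. On the minus strand the brighter probe lies upstream of the dimmer one, and the files tie them to different transcripts (NM_001271943 and NM_007162). Whether TFEB RNA was higher with the DLEU1 vector therefore depended on the probe, and both are shown.
TFEB, NM_001271943, chr6:41658820-41658879, minus strand: atgcagcaacaggctgtcatgcattacatg
TFEB, NM_007162, chr6:41651718-41651777, minus strand: ccggaagagcagctgccctccgacccctca

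All probes of each gene were then compared. Of the 62 probes, 60 were detected on both arrays, 16 of these lay 2-fold or more above control and 0 lay as far below. Probes of 1 gene are counted separately here. With 1 probe per gene, 9.18% of all detected gene names lay as far above and 9.78% as far below. A total of 16 genes had more than 1 detected probe, and in 8 of them the probes fell on both sides of 0. Those 8 were CTSC, CTSZ, ATG7, TFE3, MAP1LC3B, TFEB, ATG5 and ATG12, and none was at least 2-fold different by its brightest probe. For TFE3, MAP1LC3B and ATG7 every probe lay closer to 0 than the SD of 0.45 between probes of 1 gene. The same count over all genes is not given here. PSAP and GABARAPL1 were the genes past 2-fold with a second detected probe, and in both cases the second probe gave nearly the same difference. ULK1, WIPI1, CTSD, OPTN, GAA, GABARAP, CTSH and CTSB had 1 detected probe each.

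**Figure D2:**
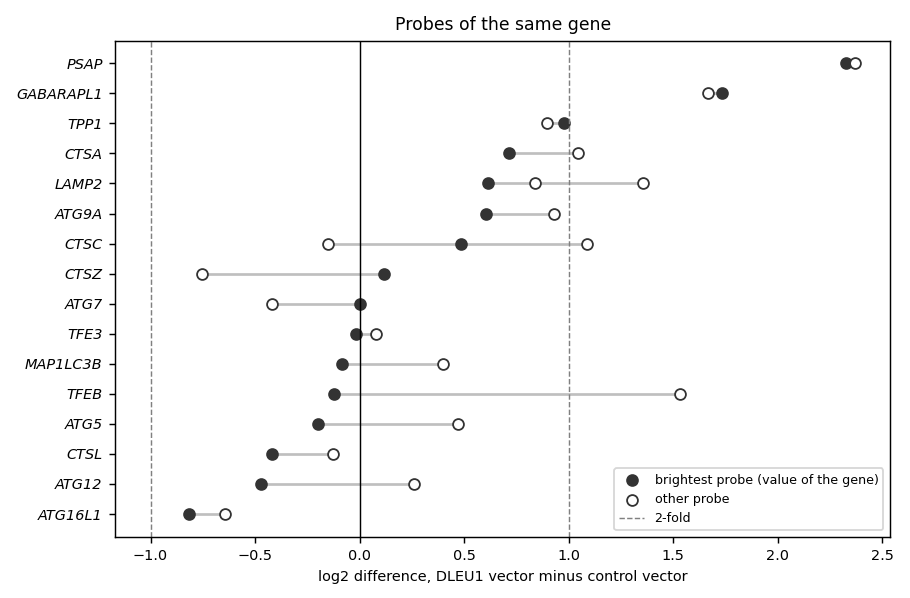
Log2 difference (DLEU1 vector minus control vector, x axis) of each probe detected on both arrays, for the 16 genes with more than 1 such probe; filled points are the brightest probe and open points the others, and dashed lines mark 2-fold. The PSAP and GABARAPL1 probes nearly coincide, while those of TFEB and CTSC spread over more than 1 log2 unit across 0.

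The promoters of these genes were searched for the letters CACGTG, the core that TFEB and related helix-loop-helix factors bind, in a window from 250 bases before to 50 bases after the transcription start (RefSeq, GRCh38.p14). This motif and the longer TCACGTGA are palindromes, so both strands give the same matches, and the longer motif contains the shorter. Of the 43 genes, 35 had a promoter entry. LAMP3, PSAP, CTSB, ASAH1, CTSS, HEXA, CTSK and LAMP2 had none. CACGTG was present in 7 of the 35 promoters (20.0%), those of CTSA, CTSD, GAA, NEU1, LAMP1, CD63 and MCOLN1, against 8.77% of the promoters of all 27305 symbols and 12.3% of those of the 10103 detected protein-coding genes with an entry. TCACGTGA was present in 4 of the 35 (CTSA, GAA, LAMP1 and MCOLN1, or 11.4%, against 1.18% of all symbols and 2.19% of the detected protein-coding genes). The stretches below hold CACGTG in capitals with 12 bases on either side, 1 for each of the 7 genes, and are written on the strand of the gene.
CTSA, chr20:45891298-45891327, plus strand: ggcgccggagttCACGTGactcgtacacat
CTSD, chr11:1763957-1763986, minus strand: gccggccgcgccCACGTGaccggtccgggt
GAA, chr17:80101493-80101522, plus strand: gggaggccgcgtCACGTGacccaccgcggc
NEU1, chr6:31862930-31862959, minus strand: atgctgcgtgatCACGTGggaggagatgag
LAMP1, chr13:113297199-113297228, plus strand: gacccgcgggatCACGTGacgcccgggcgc
CD63, chr12:55729172-55729201, minus strand: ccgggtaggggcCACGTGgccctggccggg
MCOLN1, chr19:7522598-7522627, plus strand: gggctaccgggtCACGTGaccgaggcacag

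LAMP1 held 6 copies of CACGTG, and CTSA, GAA and MCOLN1 held 2 each. The 7 genes with the letters had a median log2 difference of 0.54, from -0.30 (CD63) to 1.37 (CTSD), and the 28 other genes with a promoter entry had 0.25. Over all 1246 detected protein-coding genes with CACGTG in the window the median difference was -0.19, with 85 past 2-fold above control and 180 past 2-fold below. A match describes these letters in this window and nothing more, and the binding of any factor was not measured here.

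Other genes of the pathway were read from lists of related function. In a list of further lysosomal proteins, which also holds the sulfatase-modifying factor SUMF1, 40 genes were detected. Of these, 7 lay past 2-fold above control (17.5%) and 0 past 2-fold below, with a median difference of 0.34. All detected gene names gave 9.18% higher and 9.78% lower. The highest was CTSO, a cysteine cathepsin outside the chosen set, at 2.76, followed by ACP5, the tartrate-resistant acid phosphatase, at 2.05. The others past 2-fold were ARSA (arylsulfatase A) at 1.68, IDUA (iduronidase) at 1.52, GM2A (the GM2 activator) at 1.25, SUMF1 (the sulfatase-modifying factor) at 1.15 and GRN (progranulin) at 1.09. PPT1, a palmitoyl thioesterase, was the lowest, 1.99-fold lower and so just within 2-fold. CTSV, another cathepsin outside the chosen set, differed by -0.60. FUCA1, a fucosidase, was detected with the control vector only and was at least 2.30-fold lower in DLEU1 vector cells. ARSB and SGSH were also detected with the control vector only, with bounds under 2-fold.

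The machinery that delivers and acidifies stayed within 2-fold of control. None of 13 genes for the sorting of lysosomal enzymes reached 2-fold. Nor did any of 15 subunits and accessory proteins of the V-ATPase, the lysosomal proton pump. Their median differences were 0.06 and 0.21, against -0.12 for the protein-coding genes. Above 0 lay 7 of the 13 (53.8%) and 11 of the 15 (73.3%), beside 43.0% of the protein-coding genes. Of all detected gene names, 9.18% lay past 2-fold higher and 9.78% lower, so lists this short would hold few such genes at those shares. In the sorting list the extremes were GGA2, a clathrin adaptor, at 0.83 and M6PR, the cation-dependent mannose 6-phosphate receptor, at -0.87. In the V-ATPase list they were ATP6AP1 at 0.68 and ATP6V0B at -0.51. PSAP, a cofactor precursor, and CTSD, a hydrolase, were among the hydrolases and cofactors with the largest differences. Both differed by more than any gene of the V-ATPase list. Other hydrolases did not, such as LIPA at 0.55, NEU1 at 0.54 and GLB1 at 0.03.

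Among 38 detected further autophagy genes, 1 lay past 2-fold above control and 1 past 2-fold below, with a median of 0.30. Each is 2.63% of the list, beside 9.18% higher and 9.78% lower among all detected gene names. ZFYVE1, a marker of the membrane site where autophagosomes form, differed by 1.94. BNIP3, a mitophagy receptor, differed by -1.69. Of the conjugation enzymes in this list, ATG10 differed by 0.58 and ATG3 by -0.83. ULK2, the kinase most closely related to ULK1, was detected with the DLEU1 vector only, at least 1.74-fold higher, which is a bound and not a measured fold.

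The mTORC1 complex restrains ULK1 and TFEB when nutrients are plentiful. In a list of mTORC1 genes and further genes of lysosomal nutrient sensing, 26 were detected. Of these, 5 lay past 2-fold above control and 2 past 2-fold below, and the median was -0.02. The 5 higher were SESN3 (sestrin 3) at 2.02, DEPTOR (an mTOR-binding protein) at 1.77, CASTOR1 (an arginine sensor, named GATSL3 in the files) at 1.71, FNIP2 (a folliculin partner) at 1.38 and DDIT4 (REDD1) at 1.18. SESN3, DEPTOR, CASTOR1 and DDIT4 are known as restraints on mTORC1. Other restraints in the list stayed within 2-fold, with SESN1 at 0.68, TSC2 at 0.62, TSC1 and AKT1S1 at -0.11 and SESN2 at -0.18. The 2 lower were RPTOR, the scaffold subunit of mTORC1, at -1.18 and RHEB, its activating GTPase, at -1.16. The median does not show these genes. Of the 26, 19.2% were past 2-fold higher and 7.69% past 2-fold lower, beside 9.18% and 9.78% of all detected gene names.

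**Figure D3:**
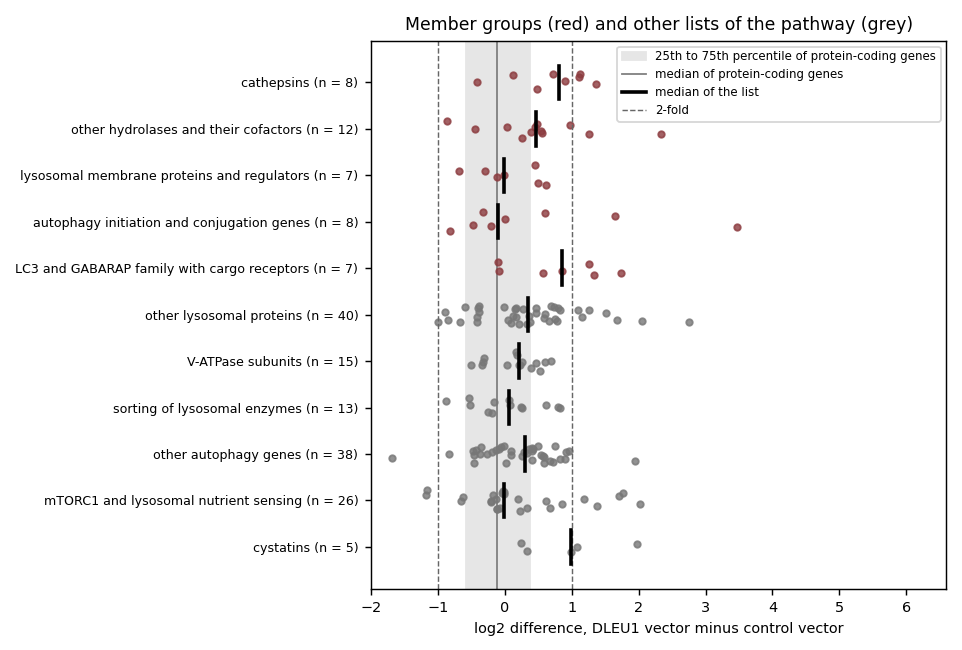
Log2 difference (DLEU1 vector minus control vector, x axis) of each detected gene in the 5 groups of lysosome, cathepsin and autophagy genes (red) and in 6 further lists (grey), with the median of each as a black bar, the median and the range from the 25th to the 75th percentile of 12360 protein-coding genes as a grey line and band, and 2-fold as dashed lines. Cathepsins, the LC3 and GABARAP family and the cystatins have medians of 0.81 to 0.99, right of the band, and the ULK1 and PSAP points lie farthest right in their groups.

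Marker lists moved on the same pair of arrays. Of 14 keratinocyte differentiation genes, 8 were at least 2-fold higher, 5 were detected only in DLEU1 vector cells and 1 lay within 2-fold, and the median over the 9 detected on both arrays was 5.10. The 13 proliferation genes each lay past 2-fold below control (median -2.42). Of the 10 squamous epithelial markers, 7 were at least 2-fold higher, and EPCAM was the lowest at -0.78. The part of differentiation or growth state in the differences of the lysosome, cathepsin and autophagy genes was not tested.

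Cathepsins and other lysosomal genes are abundant in macrophages and osteoclasts, so markers of such cells were read too. Of 7 macrophage markers with a probe, 5 were detected on both arrays, from -1.60 (CD14) to 1.86 (CSF1R, with levels of 2.07 and 3.93), while CD163 and MRC1 were not well above background. The pan-leukocyte gene PTPRC had low levels of -1.74 and -1.28. Of 6 dendritic cell markers, 2 were detected on both arrays, with differences of 0.07 (CCR7) and -1.61 (CD83). Of 8 fibroblast and osteoclast markers, 3 were detected on both arrays. COL1A1 differed by 3.99. OSCAR, a receptor of osteoclasts, had levels of 2.96 and 3.51, a difference of 0.55, and PDGFRB differed by -0.33. Of the rest, COL1A2, COL3A1, DCN and CALCR were not well above background and LUM was detected only in DLEU1 vector cells. The part of other cell types in the differences was not tested.

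The size of these differences depended on what the arrays were scaled to. The median of the lysosome, cathepsin and autophagy genes ranged from 0.02 with spike-in scaling to 0.66 with loess normalization. Scaling by the 8 spike-in probes lowered every difference by 0.46, which left 4 genes at least 2-fold higher (ULK1, PSAP, GABARAPL1 and WIPI1) and made 3 at least 2-fold lower (GLA, ATG16L1 and LAMP3). The same constant puts the medians of the further lysosomal proteins, the sorting genes, the V-ATPase and the further autophagy genes below 0. The distance between these genes and the protein-coding genes did not depend on that constant, and it was 0.60 with either scaling.

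**Figure D4:**
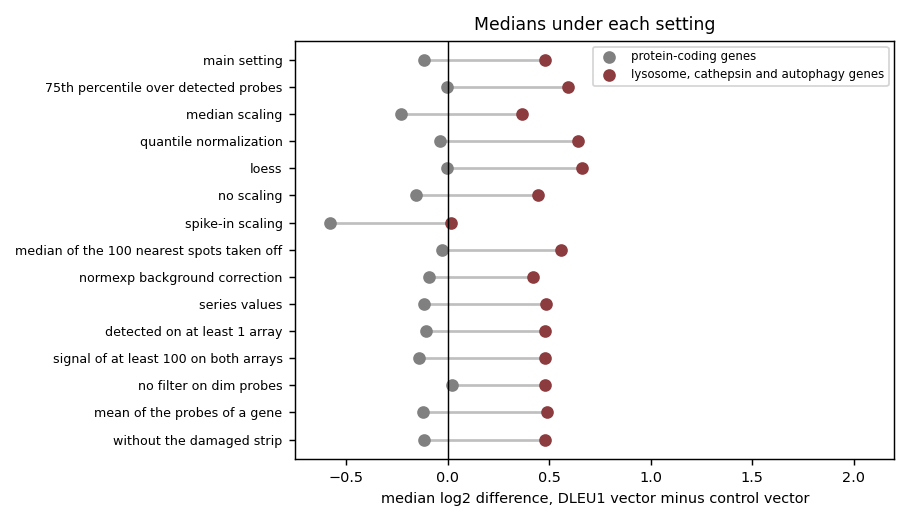
Median log2 difference (DLEU1 vector minus control vector, x axis) of the protein-coding genes (grey) and of the lysosome, cathepsin and autophagy genes (red) under the main setting and 14 alternatives. Both medians shift together with the scaling, and the red point lies to the right of the grey one in each setting, by 0.46 to 0.68. Scaling by a constant cannot change this distance, so the settings that differ only by a constant are no separate check of it.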

How the data were processed

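RNA of 2 cell cultures was measured on 1 array each. The authors deposited the intensity that Agilent Feature Extraction 10.7.3.1 had given each spot, and per the file headers the local background had been subtracted and dim spots given a surrogate value. The series values held the same processed intensity and differed by at most 0.497%. Fold changes of the authors were not used. Probe positions are on hg19, as the files give them; exon and UTR annotation of that build was not used here.

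Control spots and outlier spots (84 and 103) were left out, no spot was saturated (0), spots of a probe were averaged on the log2 scale, and the 75th percentile of the array (7.92 and 7.88) was subtracted. A probe was detected where the software marked it well above background (47.6% and 48.1% of probes; 26279 on both arrays). A strip of the DLEU1 vector array (columns 36 to 40, rows 1 to 112) with 516 probes looked damaged. It held 0 probes of the genes described, and leaving it out was an alternative chosen after seeing the data.

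A gene took the brightest of its probes that both arrays detected, and 2-fold was the threshold. A gene that 1 array alone detected has a lower bound of its fold, computed from whichever was larger on the dim array, its own signal or the weakest signal called detected. Genes named were those past 2-fold, the extremes of each group and central pathway genes, and all others are given by value or range. The genes and lists were chosen with earlier results of these data known. Of 213 genes in other lists, 2 matched through an older symbol, and ATP6V0A2, CD68, CST4, LYZ and TCIRG1 had no probe matched by name. The scripts were tested on simulated data. Alternatives used limma 3.58.1 in R 4.3.3 (quantile, loess with span 0.3, normexp with offset 50) and pandas 2.3.3 in Python 3.11.15. With 1 array per group, the number of arrays limits the precision.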

Additional observations from a re-analysis of the deposited data

How the results depend on the processing

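No paired analysis was possible because each vector had 1 array, and for the same reason no array could be left out. The median difference of the 42 detected genes, 0.48, became 0.59 where the 75th percentile was taken over detected probes, 0.37 with median scaling, 0.64 with quantile normalization, 0.66 with loess and 0.0185 with spike-in scaling. The 10 genes at least 2-fold higher became 4 with spike-in scaling, 16 at a 1.5-fold threshold and 4 at a 3-fold threshold. The 0 genes at least 2-fold lower became 3 with spike-in scaling and 3 at 1.5-fold. The median of the autophagy initiation and conjugation genes, -0.10, turned positive with that percentile (0.013), quantile normalization (0.013), loess (0.025), the median of the 100 nearest spots taken off (0.024) and the average over a gene's probes (0.015). The median of the membrane proteins and regulators, -0.02, turned positive under the same 5 settings (0.096, 0.10, 0.12, 0.021 and 0.46). Apart from scaling constants, which shift every gene alike, the cause was not tested. Of 587 values of single genes under the alternatives, 344 moved by less than the SD between spots of 1 probe (0.0800), and 33 changed sign, in 12 genes. None of the 10 genes at least 2-fold higher changed sign. ULK1, PSAP, GABARAPL1 and WIPI1 stayed past 2-fold in 14 of 14 alternatives, and CTSD, CTSB, GAA, GABARAP and OPTN in 13, and CTSH in 11 of the 13 that gave it a value. Several alternatives could not change a value, so these counts, and the 344 above, do not measure robustness. Leaving out the strip touched no probe of these genes. For a gene with 1 probe, the filters on dim probes and the average over probes return the same value or none. Single-spot probes and the lack of replicate arrays limit every value.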

Other observations

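The cystatins, which inhibit cysteine cathepsins, were read beside them. All 5 detected cystatins had differences above 0, with a median of 0.99, and 2 were at least 2-fold higher. Among the protein-coding genes 43.0% lay above 0 and 8.98% were at least 2-fold higher. CST6 (cystatin M/E), an inhibitor made by differentiating keratinocytes, had levels of -2.61 and -0.64 and a difference of 1.97. CSTB (stefin B), an intracellular inhibitor, had levels of 6.01 and 7.09, a difference of 1.08, and CSTA (stefin A), a cornified envelope protein, one of 0.99. CST3 (cystatin C), the main secreted inhibitor, differed by 0.34 and CST5 by 0.25, both of which lie below 0 with spike-in scaling, which lowers each value by 0.46. CST1, CST2 and CST7 were not well above background on either array. Proteases such as CTSB and CTSH and their inhibitors thus lay above control on the same array, and neither enzyme activity nor protein was measured.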
